A study of Mus musculus with 6 samples.

Results

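The transcripts of 10 genes that carry or restrain ITAM signaling were examined in bone marrow-derived macrophages (BMDMs) lacking PYK2. The genes were taken by symbol from the table of 55291 genes, and all 10 of the 10 were found there and were among the 9815 genes with enough counts to be tested. Of these 10, Syk, Btk, Plcg2, Lat2, Vav1 and Lcp2 pass the signal on, whereas Inpp5d, Ptpn6, Sirpa and Pirb oppose it. BMDMs were grown for 7 days from the marrow of 3 WT and 3 Pyk2 knock-out (PYK2 KO) mice, all C57BL/6, in medium to which L929-conditioned DMEM gave M-CSF, and the labels name no further stimulus. The knockout was in the germ line, so every cell of the mouse lacked the gene, and the sources used here give neither the age or sex of the mice nor whether the genotypes were littermates.

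An ITAM is a short tyrosine motif in the tail of an adaptor such as DAP12 (Tyrobp) or the Fc receptor gamma chain (Fcer1g). When a paired receptor is engaged, a Src family kinase phosphorylates the motif, the kinase SYK docks there, and SYK in turn acts on adaptors, VAV1, BTK and PLCγ2 to raise calcium and remodel actin. Receptors with the opposite motif, the ITIM, such as SIRPα and PIR-B, recruit phosphatases such as SHP-1 (Ptpn6). They set a threshold for phagocytosis and activation in macrophages, and the phosphatase SHIP-1 (Inpp5d) also restrains the pathway.

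None of the 10 transcripts passed the test for a difference between genotypes, and in 9 of 10 the mice of the genotypes overlapped. With the quasi-likelihood test of edgeR and Benjamini-Hochberg adjustment over all genes tested, 0 of 10 passed an adjusted p-value of 0.05, where 25 genes or 0.255% of all genes tested did. At an unadjusted p-value under 0.05 the count was also 0 of 10, against 6.03% of all genes tested. The log2 fold changes (PYK2 KO minus WT) ran from -0.14 for Pirb to 0.14 for Btk with a median of -0.03, beside a median of 0.0019 over all genes tested. The median of the 10 was -0.06 without PYK2 KO library 3 and -0.02 without PYK2 KO library 4. All 4 inhibitory genes had values below 0, as did 3 of the 6 activating genes, and 49.5% of all genes tested were below 0.

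Each mouse gave 1 library, prepared with a bulk form of MARS-seq, which reads the 3′ end of polyadenylated RNA, with 2857097 to 3917207 counts per library. Ptk2b, the gene for PYK2, was at 188, 196 and 199 CPM in the WT libraries 1, 5 and 6 and at 22.8, 22.2 and 20.6 CPM in the PYK2 KO libraries 2, 3 and 4, so that 11.2% of the WT level remained in PYK2 KO BMDMs. CPM is the count of a gene divided by the library size, scaled by TMM and brought to a common size. Which exons were removed is not given in the sources used here. Among macrophage markers, Adgre1 had 1532 to 2326 counts, Csf1r 3167 to 5277 and Lyz2 69149 to 92161 per library. Their log2 fold changes were -0.09, -0.05 and 0.08. Other macrophage markers were at 0.21 (Mertk), 0.20 (Fcgr1), 0.12 (Itgam), -0.02 (Cd68) and -0.08 (Cd14), and none of these 8 passed the test. Several of the 10 genes are also used by B cells, mast cells and platelets, so markers of these cells were counted. The B cell markers Cd79a, Ms4a1, Pax5, Ebf1, Blk and Cr2 were at 0 counts in every library, and Cd79b had 43 to 80. Of 8 mast cell and basophil markers 7 had at most 3 counts in any library and 5, including Cpa3 and Fcer1a, were at 0. Among 6 platelet markers only Pf4 was tested, at 1922 to 2535 counts, and Gp9, Gp1ba and Gp6 were at 0. In bulk RNA, fewer cells of a type and less RNA per cell cannot be told apart.

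The genes lie on 10 different chromosomes and none is on chromosome 14 with Ptk2b. Their regulatory sequence was read because the genes are shared by the myeloid lineage, whose factor PU.1 binds purine-rich DNA around GGAA. Promoters of 8 of the 10 genes, those other than Lat2 and Sirpa, were matched by symbol in RefSeq (GRCm38.p6), and the 250 bases before each gene start were searched on both strands. The longer motif GAGGAAGT was found in 3 of the 8 genes, against 2.79% of 27025 genes, and the shorter GAGGAA, which it contains, in 4 of the 8, against 25.85%. These matches describe letters in a window and not occupied sites. The 3 stretches that hold the longer motif are shown 5′ to 3′ with the motif in capitals, to let the reader compare its place.
Vav1, chr17:57279029-57279099, plus strand: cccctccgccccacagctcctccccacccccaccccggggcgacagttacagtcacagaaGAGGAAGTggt
Inpp5d, chr1:87620232-87620311, plus strand: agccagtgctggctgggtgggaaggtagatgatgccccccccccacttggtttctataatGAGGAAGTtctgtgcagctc
Pirb, chr7:3720435-3720562, minus strand: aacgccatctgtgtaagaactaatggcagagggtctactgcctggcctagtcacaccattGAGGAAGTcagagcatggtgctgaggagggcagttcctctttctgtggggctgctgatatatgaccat
The motif began 11 bases before the start of Vav1, 20 bases before that of Inpp5d and 120 bases before that of Pirb, so 1 activating and 2 inhibitory genes carried it.

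**Figure D1:**
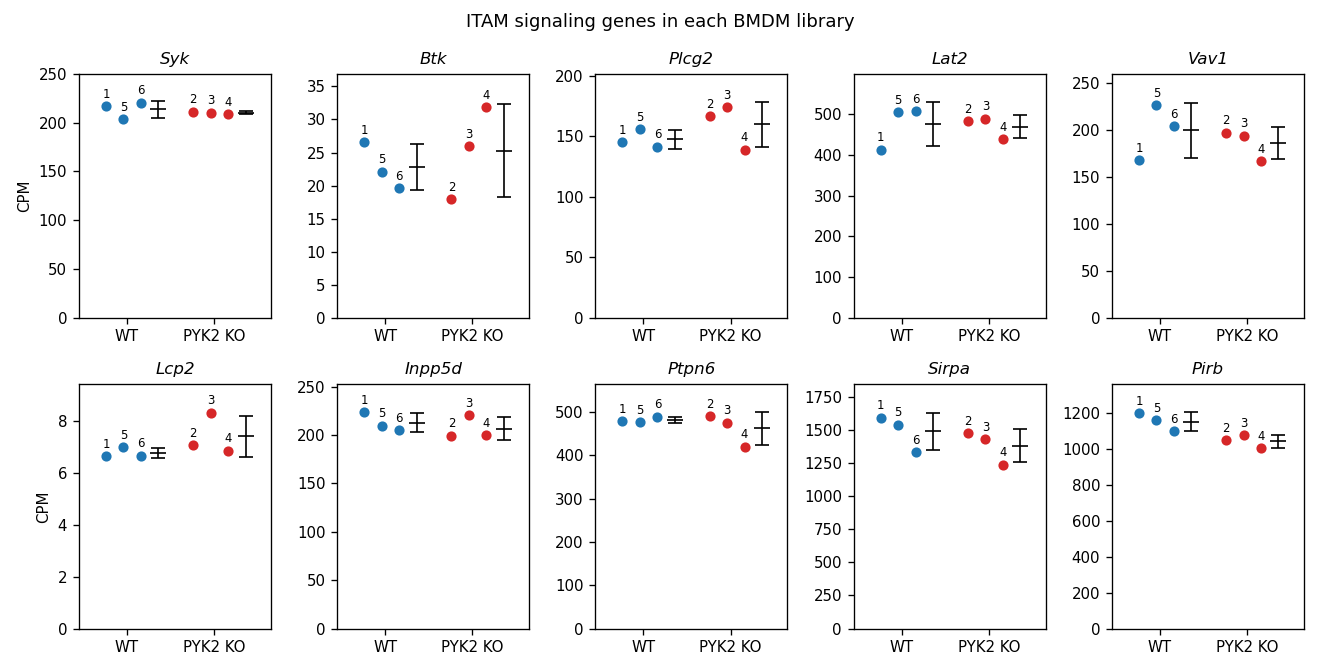
Level of the 10 ITAM signaling genes in each library, in CPM on a linear axis from 0, for WT (blue) and PYK2 KO (red) BMDMs; numbers are mouse numbers, and the bar beside each group is the mean with SD of 3 mice. The genotypes overlap in 9 panels, and in the Pirb panel the 3 PYK2 KO values (1005 to 1077 CPM) lie below the 3 WT values (1098 to 1200 CPM).

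Syk encodes the kinase that docks on the phosphorylated ITAM, on chromosome 13 from 52583173 to 52648792 on the plus strand (GENCODE M21, GRCm38). Syk was at 217, 203 and 220.5 CPM in WT libraries 1, 5 and 6 and at 211, 210.3 and 209 CPM in PYK2 KO libraries 2, 3 and 4. The PYK2 KO values all lay inside the WT range. The group means were 214 ± 8.93 and 210.1 ± 1.40 CPM (SD, n = 3 per genotype). The coefficient of variation was 4.18% between WT and 0.667% between PYK2 KO mice, beside medians of 10.7% and 10.5% over all genes tested. Those medians include genes with few counts, and a spread of 3 values is imprecise, so the difference in spread was not read further. The log2 fold change of Syk was -0.02 (SE 0.08, edgeR adjusted p = 0.993), and its 95% interval placed the PYK2 KO level between 87.7% and 110.4% of WT. With 1 library left out at a time the value of Syk stayed between -0.06 and -0.00017.

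Btk encodes a Tec family kinase that is drawn to the membrane by the lipid PIP3 and that activates PLCγ2 (chromosome X, 134542336 to 134583570, minus strand). Its CPM values were 26.6, 22.1 and 19.6 in WT against 17.97, 25.98 and 31.9 in PYK2 KO libraries. The lowest and the highest of the 6 values were both from PYK2 KO mice. With 56 to 107 counts per library Btk was sparsely covered, and the coefficient of variation was 15.4% between WT and 27.6% between PYK2 KO mice. Its log2 fold change of 0.14 (SE 0.19, edgeR adjusted p = 0.964) had an interval from 83.2% to 147% of WT, and was -0.07 without PYK2 KO library 4.

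Plcg2 encodes PLCγ2, which cleaves PIP2 into the messengers that release calcium and activate protein kinase C (chromosome 8, 117498291 to 117635142, plus strand). It was at 145, 156 and 141 CPM in WT against 166, 174 and 139 in PYK2 KO libraries. PYK2 KO libraries 2 and 3 stood above all WT libraries, and PYK2 KO library 4 below them. The log2 fold change was 0.11 (SE 0.09, edgeR adjusted p = 0.935), with an interval from 94.3% to 124% of WT. Without PYK2 KO library 4 the Plcg2 value was 0.21, against 0.05 when PYK2 KO library 3 was left out. The former had an unadjusted p-value of 0.0352 in edgeR, which did not pass adjustment (adjusted p = 0.9999).

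Lat2 encodes NTAL, a membrane adaptor that SYK phosphorylates, and Vav1 a guanine nucleotide exchange factor for Rac that links the receptor to actin. Lat2 (chromosome 5, 134600022 to 134615025, minus strand) was at 413, 506 and 508 CPM in WT against 482, 488 and 438 in PYK2 KO libraries. Vav1 (chromosome 17, 57279100 to 57328031, plus strand) was at 168, 226 and 204 CPM in WT against 197, 194 and 166 in PYK2 KO libraries. In both genes WT library 1 and PYK2 KO library 4 were the lowest pair, and the genotypes overlapped. The log2 fold changes were -0.02 for Lat2 and -0.10 for Vav1, with intervals from 86.1% to 113% and from 79.7% to 109% of WT. Without WT library 5 they were 0.03 for Lat2 and 0.00067 for Vav1, and without WT library 1 that of Vav1 was -0.22, with an unadjusted p-value of 0.0405 in edgeR. The end of Lat2 overlaps that of Rfc2 on the opposite strand, and whether strand was used in counting is not given in the sources used here, so part of the Lat2 counts may be uncertain. Rfc2 itself had 402 to 569 counts and a log2 fold change of -0.04.

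Lcp2 encodes SLP-76, a scaffold for VAV1 and PLCγ (chromosome 11, 34046920 to 34092295, plus strand). It had 26, 25 and 19 counts in WT and 22, 24 and 23 counts in PYK2 KO libraries, the fewest of the 10 genes. After scaling, Lcp2 was at 6.64, 7.00 and 6.66 CPM in the former and 7.06, 8.31 and 6.86 CPM in the latter, and the ranges overlapped. The means were 6.77 ± 0.201 (SD) in WT against 7.41 ± 0.790 CPM in PYK2 KO (n = 3 per genotype). Its interval, from 76.5% to 155% of WT, was the widest of the list. Its end overlaps 4930469K13Rik on the opposite strand, which had 1 count in all. Without PYK2 KO library 3 the value of Lcp2 was 0.04 on the log2 scale, against 0.12 with all libraries.

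**Figure D2:**
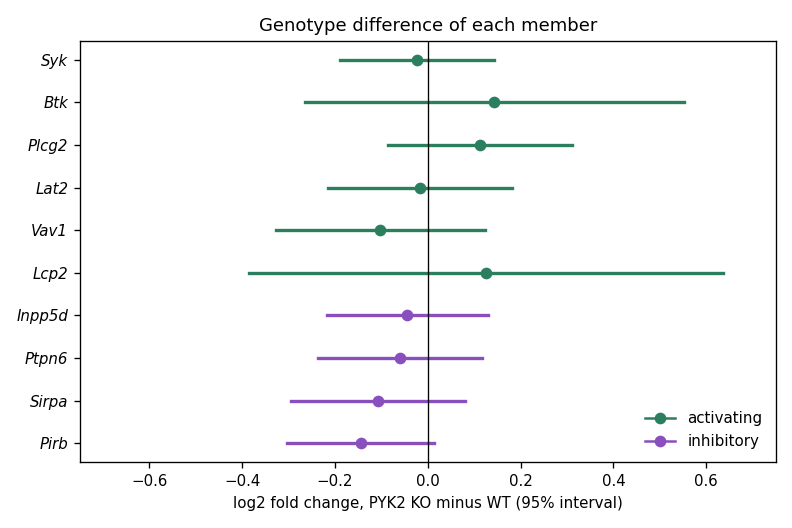
Log2 fold change (PYK2 KO minus WT) of each gene with its 95% interval from the quasi-likelihood fit, activating genes in green and inhibitory genes in purple. Every interval contains 0, the widest being those of Lcp2 and Btk, and the 4 inhibitory genes lie left of 0, from -0.04 to -0.14.

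Among the genes that restrain the pathway, the phosphatases overlapped between genotypes. Inpp5d encodes SHIP-1, which removes the PIP3 that BTK binds (chromosome 1, 87620312 to 87720507, plus strand). It was at 224, 209.9 and 205 CPM in WT against 199.5, 221 and 199.99 in PYK2 KO libraries, a log2 fold change of -0.04 with an interval from 86.0% to 109% of WT. It was -0.09 without PYK2 KO library 3 and -0.0059 when WT library 1 was left out. Ptpn6 encodes SHP-1, the tyrosine phosphatase that ITIM receptors recruit (chromosome 6, 124720707 to 124738714, minus strand). It was at 479, 476 and 489 CPM in WT against 491, 475 and 419.9 in PYK2 KO libraries. The WT mice varied by 1.34% in Ptpn6, and PYK2 KO library 4 alone lay below the others by more than this. Its log2 fold change was -0.06, with an interval from 84.9% to 108% of WT, and 0.0047 without PYK2 KO library 4.

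Sirpa encodes SIRPα, the receptor for CD47 that restrains engulfment (chromosome 2, 129592835 to 129632228, plus strand). It was at 1592, 1540 and 1331 CPM in WT against 1476, 1431 and 1238 in PYK2 KO libraries. Each genotype had a library below the rest, WT library 6 and PYK2 KO library 4, and the ranges overlapped. The log2 fold change was -0.11 (SE 0.09, edgeR adjusted p = 0.935), with an interval from 81.5% to 106% of WT, and was -0.03 without PYK2 KO library 4 but -0.18 when WT library 6 was left out. Its ligand Cd47 was at 229 ± 13.5 (SD) in WT against 220.5 ± 7.34 CPM in PYK2 KO (n = 3 per genotype), a log2 fold change of -0.05. The value of Cd47 was -0.02 without WT library 5 and -0.10 when WT library 1 was left out.

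Pirb encodes PIR-B, an ITIM receptor that binds MHC class I (chromosome 7, 3711409 to 3720391, minus strand). It was at 1200.0, 1161 and 1098 CPM in WT against 1048, 1077 and 1005 in PYK2 KO libraries. Of the 10 genes it was the 1 whose genotypes did not overlap, and 10.2% of all genes tested were separated in this way. The means were 1153 ± 51.4 and 1043 ± 36.5 CPM (SD, n = 3 per genotype), which put the PYK2 KO level at 90.5% of WT. The log2 fold change of Pirb was -0.14 (SE 0.07, edgeR adjusted p = 0.873) with an unadjusted p-value of 0.0718, and the interval ran from 81.0% to 101% of WT. Pirb was well covered, with 3110 to 4699 counts per library. Pirb had an unadjusted p-value of 0.0463 in DESeq2 and, in edgeR, of 0.0398 without WT library 6 and 0.0474 with a grouping of libraries as covariate, and none of these passed adjustment. In all other alternatives the unadjusted p-value was not under 0.05, for example 0.168 in edgeR without PYK2 KO library 4. With 1 library left out at a time its value stayed between -0.18 and -0.11.

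Sirpa and Pirb belong to families with closely related activating members, so shared sequence was checked. Windows of 50 bases in the last 500 bases of their coding transcripts were compared with transcripts of every other gene in GENCODE M21. For Sirpa 0 of 1460 windows were shared, and for Pirb 4 of 451 (0.887%), with genes outside its family, and 0 were shared for the 8 other genes of the list. Of the listed relatives in the table there were 2 counts of Pira2 and 1, 34 and 47 counts of Sirpb1a, Sirpb1b and Sirpb1c summed over the 6 libraries. The symbols Pira1, Pira6, Pira7, Pira11, Pira12 and Pira13 were absent from the table, so these relatives of Pirb could not be looked up. Of the 47 counts of Sirpb1c, 20 were in PYK2 KO library 4.

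**Figure D3:**
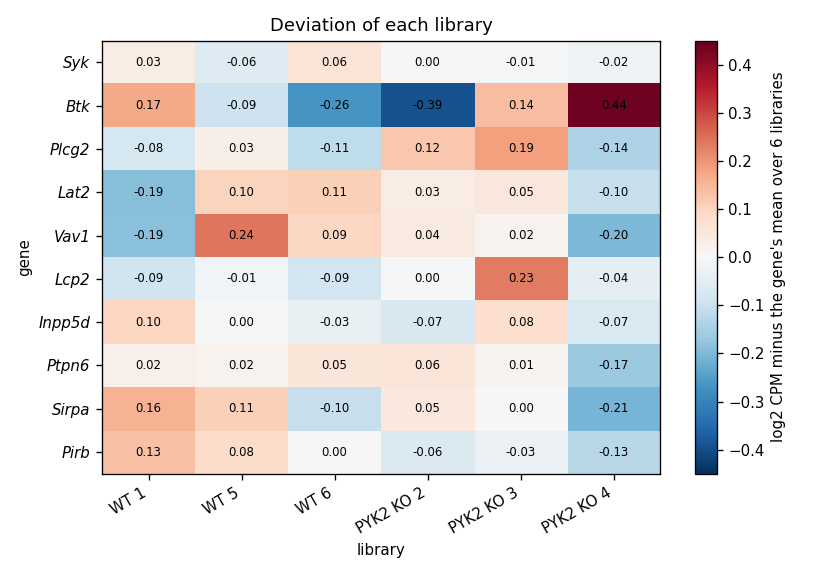
Log2 CPM of each gene in each library minus the mean of that gene over the 6 libraries, as a colour and a printed value. The column of PYK2 KO library 4 is below 0 in 9 of 10 genes, and its Btk value of 0.44 is the highest in the plot.

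The genes were also compared with each other across libraries. Of the 45 pairs, 27 had a positive Pearson's r of log2 CPM over the 6 libraries, with a median of 0.15. The highest were Lat2 with Vav1 (0.91), Plcg2 with Lcp2 (0.82) and Sirpa with Pirb (0.81), and the lowest was Btk with Ptpn6 (-0.82). These describe 6 points that share library depth and preparation. The genes whose pattern was most like that of Syk were Ccnh, Ints14 and Rai1, each with r of 0.99 over the same 6 libraries, and their own log2 fold changes were -0.14, -0.05 and -0.12. They were the highest of 9809 genes searched, and the median r of Syk with all other genes was -0.0054. With 1 library left out at a time the fold changes ran from -0.31 to -0.04 for Ccnh, -0.13 to 0.01 for Ints14 and -0.28 to -0.0078 for Rai1. The count of Syk per count of Ptpn6 was 0.453, 0.427 and 0.451 in WT and 0.431, 0.443 and 0.497 in PYK2 KO libraries, so the kinase and the phosphatase kept overlapping ratios. That of Btk to Inpp5d was 0.119, 0.105 and 0.0957 in WT and 0.090, 0.118 and 0.160 in PYK2 KO libraries, and PYK2 KO mice held both extremes. The receptors were set against the phosphatase they recruit. Sirpa per Ptpn6 was 3.33, 3.23 and 2.72 in WT and 3.01, 3.01 and 2.95 in PYK2 KO libraries, and Pirb per Ptpn6 was 2.51, 2.44 and 2.25 in WT and 2.14, 2.27 and 2.39 in PYK2 KO libraries. Both ratios overlapped between genotypes, Pirb included.

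PYK2 KO library 4 stood apart within its genotype. In it 1 of the 10 genes was above its own mean over the libraries, against 5 to 8 of 10 in the others, while 50.4% of tested genes were above theirs in this library. Without this library Ptpn6 and Lat2 were at 0.0047 and 0.03 on the log2 scale, Btk at -0.07 and Pirb at -0.12. A grouping known from earlier results of these data, WT library 1 with PYK2 KO libraries 3 and 4, was also looked at, since B2m had 3020 to 5102 counts in those and 607 to 1631 in the others. The labels name no batch for it. Btk was higher and Vav1 lower in these 3 libraries without overlap, as 14.2% of all genes tested were apart, and with the grouping as a covariate the fold change of Btk was -0.02, that of Vav1 -0.015 and that of Pirb -0.16. The part of the grouping in these values was not tested further.

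The other genes of the pathway were read in the same fit, in lists that were chosen with earlier results of these data known, with 98 genes in the table, of which 88 were tested. By edgeR's quasi-likelihood test 0 of 88 passed an adjusted p-value of 0.05, and 12 were below an unadjusted p-value of 0.05 (9 with higher and 3 with lower values in PYK2 KO). Over all genes tested these shares were 0.255% and 6.03%. The count of 12 fell to 4 without WT library 5 (469 genes in all), to 5 when PYK2 KO library 4 was left out (440 in all) and to 7 when PYK2 KO library 3 was (564 in all). It was 9 without WT library 1 (652 in all). It was 13 without WT library 6 (697 in all) and 13 without PYK2 KO library 2 (693 in all). In 9 of the 88 the genotypes did not overlap (7 with PYK2 KO above and 2 below), beside 10.2% of all genes tested. DESeq2 also called 0 of the 88, with 6 at an unadjusted p-value under 0.05, where 271 genes in all were.

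Neither of the ITAM adaptors passed the test, and the genotypes overlapped in both. Tyrobp, which encodes DAP12, was at 2533 ± 241 (SD) in WT against 2685 ± 221 CPM in PYK2 KO (n = 3 per genotype), a log2 fold change of 0.08 that ran from 0.01 (without WT library 1) to 0.15 (PYK2 KO library 3 left out). Fcer1g was at 1693 ± 50.4 and 1674 ± 137 CPM (SD, n = 3 per genotype), a log2 fold change of -0.02 that was 0.05 without PYK2 KO library 4. Of the 14 tested genes in the list of adaptors and paired receptors, 12 had values above 0 and 0 passed adjustment, the median being 0.18 on the log2 scale, while 4961 of all 9815 genes tested were above 0. This median was 0.11 without PYK2 KO library 2 and 0.12 without PYK2 KO library 4. Clec4e, the receptor Mincle, was at 50.1, 57.1 and 77.5 CPM in WT against 79.2, 80.4 and 86.7 in PYK2 KO libraries. Its genotypes did not overlap, and the log2 fold change was 0.43 (SE 0.13, edgeR adjusted p = 0.497). Without WT library 6 the value of Clec4e was 0.62 and passed (edgeR adjusted p = 0.0347), and without WT library 1 it was 0.30 (edgeR adjusted p = 0.695). Cd300ld, which pairs with the Fc receptor gamma chain, had a value of 0.44 (edgeR adjusted p = 0.537) with overlapping genotypes. Clec4n, the receptor Dectin-2, was at 26.05, 15.4 and 18.2 CPM in WT against 19.9, 24.2 and 103 in PYK2 KO libraries. A single library carried this difference, since the log2 fold change of 1.31 became 0.13 without PYK2 KO library 4.

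Of the 10 Src family kinases and regulators, Src was at 5.11, 5.598 and 4.21 CPM in WT against 3.21, 3.46 and 2.38 in PYK2 KO libraries, the genotypes not overlapping. Src rested on few counts, 20, 20 and 12 in the former and 10, 10 and 8 in the latter. Its log2 fold change was -0.74 (edgeR adjusted p = 0.783). Fgr and Ptpn22, a phosphatase that acts on these kinases, had values of 0.36 and 0.39, and in both the PYK2 KO mice lay above the WT mice. Lyn, a kinase tied to Fc receptors in macrophages, was at 0.05. The median of the list was -0.02, against -0.07 without WT library 1 and 0.02 with at least 10 counts required in every sample, which removed Src.

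Beside Syk, 19 adaptors and enzymes had a median log2 fold change of -0.02. This median was -0.0064 without WT library 1, -0.04 without WT library 6 and -0.05 with the covariate. Pik3ap1, which encodes the PI3-kinase adaptor BCAP, was at 216, 214 and 221 CPM in WT against 189, 197 and 192 in PYK2 KO libraries. The genotypes did not overlap, and the log2 fold change of -0.17 did not pass (edgeR adjusted p = 0.787). Grap, an adaptor of the Grb2 family, was at -0.40 with overlapping genotypes. In the branch of calcium, diacylglycerol and NF-kB the 22 genes had a median of -0.03, which was 0.01 without PYK2 KO library 2 and -0.06 when WT library 5 was left out. Prkcb, a protein kinase C, was at 0.23 with overlapping genotypes (edgeR adjusted p = 0.799). The value of Prkcb was 0.14 without PYK2 KO library 4 and 0.15 with the covariate.

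The 23 other inhibitory genes that were tested had a median of -0.0046, with 11 above and 12 below 0. This median was 0.03 without PYK2 KO library 4 and 0.02 when WT library 1 was left out. Pilra, an ITIM receptor, was at 49.8, 44.5 and 66.9 CPM in WT against 73.1, 71.7 and 67.4 in PYK2 KO libraries, all above the WT values, with a log2 fold change of 0.41 (edgeR adjusted p = 0.539). Fcgr2b, the inhibitory Fc receptor, was at 0.28 with overlapping genotypes, and at 0.18 without WT library 6 and 0.37 when WT library 5 was left out. Lilr4b, at 0.25 with overlapping genotypes, is counted in this list although its product, gp49A, lacks an ITIM. Its inhibitory relative Lilrb4a had 1 to 7 counts per library and was not tested, and counts of such close relatives are uncertain. Several receptors above are also found on neutrophils. Of 9 neutrophil markers 6 were tested, of which 2 were below an unadjusted p-value of 0.05 and 0 passed after adjustment, S100a9 with 97 to 277 counts in WT and 158 to 346 in PYK2 KO libraries and Mpo with 4 to 12 and 11 to 21. Their log2 fold changes were 0.85 for S100a9 and 1.19 for Mpo (edgeR adjusted p = 0.537 and 0.591). The 4 others tested were at 0.10 (S100a8), 0.19 (Ngp), -0.26 (Camp) and -0.09 (Ltf) on the log2 scale. The summed markers were at 126 to 181 CPM in WT and 131 to 233 in PYK2 KO libraries, Ly6g had 1 count in all, and their part in these values was not tested.

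**Figure D4:**
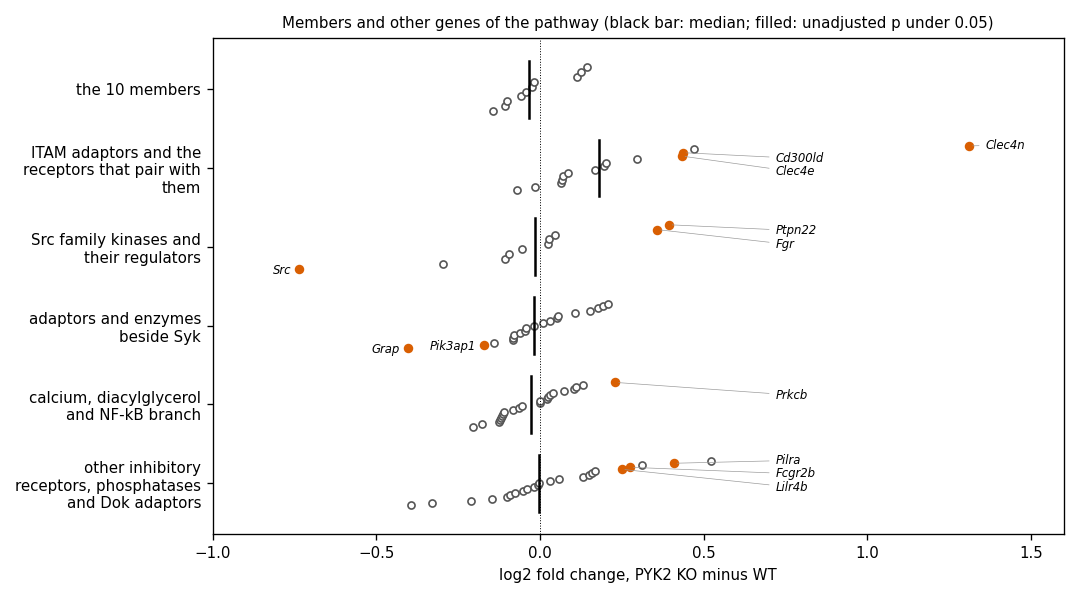
Log2 fold change (PYK2 KO minus WT) of the 10 genes and of the 88 other tested genes of the pathway, by list, with the list median as a black bar and genes at an unadjusted p-value under 0.05 filled and named. The 10 genes lie between -0.14 and 0.14, and the farthest point, Clec4n at 1.31, rests on PYK2 KO library 4.

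**Figure D5:**
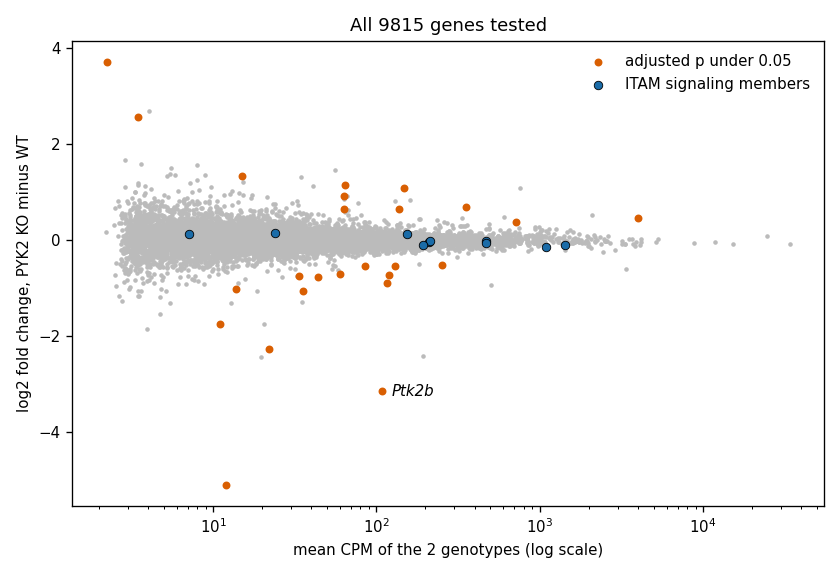
Log2 fold change (PYK2 KO minus WT) against the mean CPM of the genotypes (log scale) for all 9815 tested genes in grey, the 25 past an adjusted p-value of 0.05 in orange and the 10 ITAM signaling genes in blue. The blue points lie between -0.14 and 0.14 at all levels, from Lcp2 on the left to Sirpa on the right, whereas Ptk2b is at -3.15.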

How the data were processed

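BMDM RNA of 3 WT and 3 PYK2 KO mice was sequenced. The deposited values are raw counts for each gene, which the UTAP pipeline made from bulk MARS-seq (3′ end) libraries, and the submitters' notes name cutadapt, STAR and mm10. Annotation, strand setting and collapsing of molecular identifiers are not given in the sources used here, so intervals may understate counting error. Columns were matched to mice by name, and 0 columns belonged to other samples. Counts were fitted with edgeR 4.0.16 under R 4.3.3 (low counts removed by filterByExpr, TMM, quasi-likelihood test on genotype, Benjamini-Hochberg adjusted p-value under 0.05 across 9815 genes). Standard errors came from the fold change and F statistic, and 95% intervals from these with the fit's degrees of freedom. The fit was tested on simulated data. Alternatives were DESeq2 1.42.0, limma 3.58.1 (voom), RLE or no scaling, no filter, a minimum of 10 counts per sample, a covariate, and leaving out each library. The named genes were the 10 members, Ptk2b, Tyrobp, Fcer1g, Cd47, pathway genes at an unadjusted p-value under 0.05 and the 3 genes most correlated with Syk. Others named were chosen after their values were seen. The members and lists were chosen with earlier results of these data known. The lists also held 8 symbols that the table did not use. Marker lists of T and NK cells and of dendritic cells summed to at most 8.82 and 6.64 CPM in any library. Positions and transcripts came from GENCODE M21 (GRCm38) and promoters from RefSeq. Some genes of the lists are not reported here.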

Additional observations from a re-analysis of the deposited data

How the results depend on the processing

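No paired analysis was run because the labels name no litter or shared preparation that would pair mice of the genotypes. They give only mouse numbers (1, 5 and 6 in WT, 2, 3 and 4 in PYK2 KO). The count of members past the threshold was 0 under all 13 alternatives, and Ptk2b kept its direction, from -3.19 to -3.11. Of 130 values of the 10 members, 122 kept their direction and 8 reversed, and the cause was not tested. With the mixed grouping as a covariate these were Btk (-0.0192) and Lat2 (0.0468), as was Fcer1g (0.0132). With 1 library left out at a time, values ran from -0.0699 to 0.338 for Btk, -0.1102 to 0.0321 for Lat2, -0.2156 to 0.00067 for Vav1, -0.1064 to 0.0047 for Ptpn6, -0.0607 to 0.0486 for Fcer1g and -0.1261 to 0.0112 for Ints14. Without a filter on low counts 159 genes passed in all, and 3 pathway genes (Clec4n, Clec4e and Cd300ld), Clec4n with an edgeR adjusted p-value of 1.16e-15 although 1 library carried its difference. Leaving out 1 library gave 14 to 34 genes in all: 14 when PYK2 KO 4 was dropped, and 15 when either WT 5 or PYK2 KO 2 was. It gave 0 to 1 pathway genes, Clec4e passing when WT 6 was dropped. Lcp2 (19 to 26 counts per library) and Btk (56 to 107) had the fewest counts of the members and the widest intervals. Of 91 values of 7 medians (6 lists and all genes tested), 5 moved by more than a set yardstick, each on leaving out 1 library. The yardstick was the SD between the WT libraries of the mean log2 CPM of the same genes.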
